A study of Mus musculus with 8 samples.

Results

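This is a description of 43 genes of the lung endothelium, the cells that line blood and lymph vessels, among the 55401 genes of a mouse count table. They were taken by symbol from a list that was chosen with earlier results of these data known. The list holds 28 pan-endothelial genes, 4 genes of aerocytes and 4 of general capillary cells. The other genes are 5 of arteries and other large vessels and 2 of lymphatic vessels. RNA-seq was done on 8 libraries labelled as airway cells, collected 10 days after tamoxifen. The 4 control libraries have the genotype Scgb1a1cre; Cdh1F/+ and the 4 mutant libraries Scgb1a1cre; Cdh1F/F, so that all 8 carry the Cre, at least 1 floxed Cdh1 allele and the tamoxifen treatment, and the groups differ in whether 1 or 2 alleles are floxed. The Scgb1a1 promoter drives the Cre in club cells, the secretory cells of the airway, and is not known to be active in endothelium. Nothing in the labels says whether libraries came from separate animals, and p-values therefore measure the spread between these libraries, which may be technical.

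Alveolar capillaries are lined by aerocytes and general capillary cells. Aerocytes are large, thin cells specialised for gas exchange, and general capillary cells act as their progenitors and regulate vessel tone. Endothelial identity rests on ETS and SOXF transcription factors, on VEGF and angiopoietin receptors, on junction proteins such as VE-cadherin, and on BMP receptors whose loss is known in hereditary vessel and pulmonary hypertension disease. Arterial cells are marked by SOX17 and gap junction connexins, and lymphatic cells by PROX1 and LYVE1.

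The study's text describes removal of endothelial and immune cells and a sort on EPCAM and GFP, and no library's label names a sorted fraction. Endothelial genes were nonetheless abundant. As a share of library size after TMM scaling, the 43 genes together came to 1.39% to 1.93% in controls and 1.17% to 1.25% in mutants. Libraries held 15111663 to 21673654 counts, so that 3 counts, the limit that a count of 0 allows, were worth 0.138 to 0.199 CPM (here counts scaled to the library's total). Every other CPM value given was also scaled by TMM. Cdh1 stood at 321 to 428 CPM in controls and 395 to 409 CPM in mutants, and a count summed over the whole gene cannot show whether its floxed exons are present, so it gave no check of the labels. A principal component analysis split the controls: on its leading axis, with 48.8% of the variance, controls 2 and 3 had scores of -46.5 and -53.7, controls 1 and 4 of -4.1 and -9.78, and the mutants of 24.5 to 31.6. Results that rest on controls 2 and 3 are therefore given with and without them.

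Promoter sequences were available for 22 of the 43 genes, as 28 promoters of 300 bases (250 before and 50 after the start) from RefSeq, build GRCm38.p6. Those of Flt1 and Tek, a pair of receptor genes whose counts were lower in mutants, and of Emcn and Gja4, which were not called, are printed to show promoters with and without the letters AGGAAG, a core bound by ETS factors, which read CTTCCT on the other strand. Capitals mark that motif, and each is read 5′ to 3′ on the gene's own strand.
Flt1, chr5:147725962-147726261, GRCm38.p6, minus strand: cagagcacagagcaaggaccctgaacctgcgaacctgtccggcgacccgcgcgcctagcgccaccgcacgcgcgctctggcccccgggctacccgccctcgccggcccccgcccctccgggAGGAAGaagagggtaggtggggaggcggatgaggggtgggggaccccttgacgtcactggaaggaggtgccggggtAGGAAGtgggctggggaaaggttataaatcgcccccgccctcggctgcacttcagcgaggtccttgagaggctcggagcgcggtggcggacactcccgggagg
Tek, chr4:94739039-94739338, GRCm38.p6, plus strand: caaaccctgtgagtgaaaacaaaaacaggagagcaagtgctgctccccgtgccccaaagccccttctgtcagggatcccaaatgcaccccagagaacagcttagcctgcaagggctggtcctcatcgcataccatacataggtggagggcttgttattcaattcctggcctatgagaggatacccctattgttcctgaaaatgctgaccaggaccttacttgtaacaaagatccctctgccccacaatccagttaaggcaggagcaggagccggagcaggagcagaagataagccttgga
Emcn, chr3:137340828-137341127, GRCm38.p6, plus strand: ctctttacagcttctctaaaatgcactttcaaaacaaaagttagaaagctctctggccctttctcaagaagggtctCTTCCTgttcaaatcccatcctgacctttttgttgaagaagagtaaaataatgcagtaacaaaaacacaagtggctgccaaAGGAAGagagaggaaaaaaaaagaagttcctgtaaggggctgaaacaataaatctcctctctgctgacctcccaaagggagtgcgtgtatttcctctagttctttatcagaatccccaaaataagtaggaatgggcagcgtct
Gja4, chr4:127313990-127314289, GRCm38.p6, minus strand: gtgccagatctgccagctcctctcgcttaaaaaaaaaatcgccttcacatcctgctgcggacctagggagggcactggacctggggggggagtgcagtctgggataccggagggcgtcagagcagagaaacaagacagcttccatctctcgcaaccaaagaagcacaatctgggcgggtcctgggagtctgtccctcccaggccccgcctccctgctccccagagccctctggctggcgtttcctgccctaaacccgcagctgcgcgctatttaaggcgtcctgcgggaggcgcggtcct
The Flt1 and Emcn windows each hold AGGAAG at 2 places and the Tek and Gja4 windows hold it at none. Counted over both strands, 35.4% of the 32851 RefSeq mouse promoters of this length hold it, against 57.1% of the 28 member promoters (16). Of the 22 genes, 14 had it in at least 1 promoter, and of the 5 among them called between the groups (Ednrb, Erg, Flt1, Prox1, Tek), 2 had it. A further ETS core, CCGGAA, was in 14.9% of all promoters and 10.7% of member promoters, and the SOX motif ACAATG was in 12.6% and 10.7%. Such matches are descriptions of letters and not of binding.

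Of the 43 endothelial genes, 14 were called lower in the mutant libraries and 39 had a negative difference, by modest amounts. In edgeR's quasi-likelihood test on all 16964 genes that passed the filter on low counts, with Benjamini-Hochberg adjustment, 14 of the 43 genes were lower in mutants and 1 was higher (adjusted p under 0.05), against a background of 2.36% of all genes lower and 5.45% higher. The 14 were between 1.25-fold and 1.67-fold lower, with adjusted p from 0.00831 to 0.0461 over the 15 called genes. A negative log2 fold change (mutant minus control) was found in 39 of 43 genes, or 90.7%, against 50.9% of all genes, and the median was -0.41 against -0.01 over all genes. The genes were chosen with earlier results known, so these contrasts with all genes are descriptions and not tests. All 43 genes passed the filter, and 27 stood above 90% of the tested genes in CPM per kilobase of exon. In bulk RNA, fewer cells of a type and less RNA per cell cannot be told apart. Nor can either be told from a more complete removal of endothelial cells, where that step was done.

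**Figure D1:**
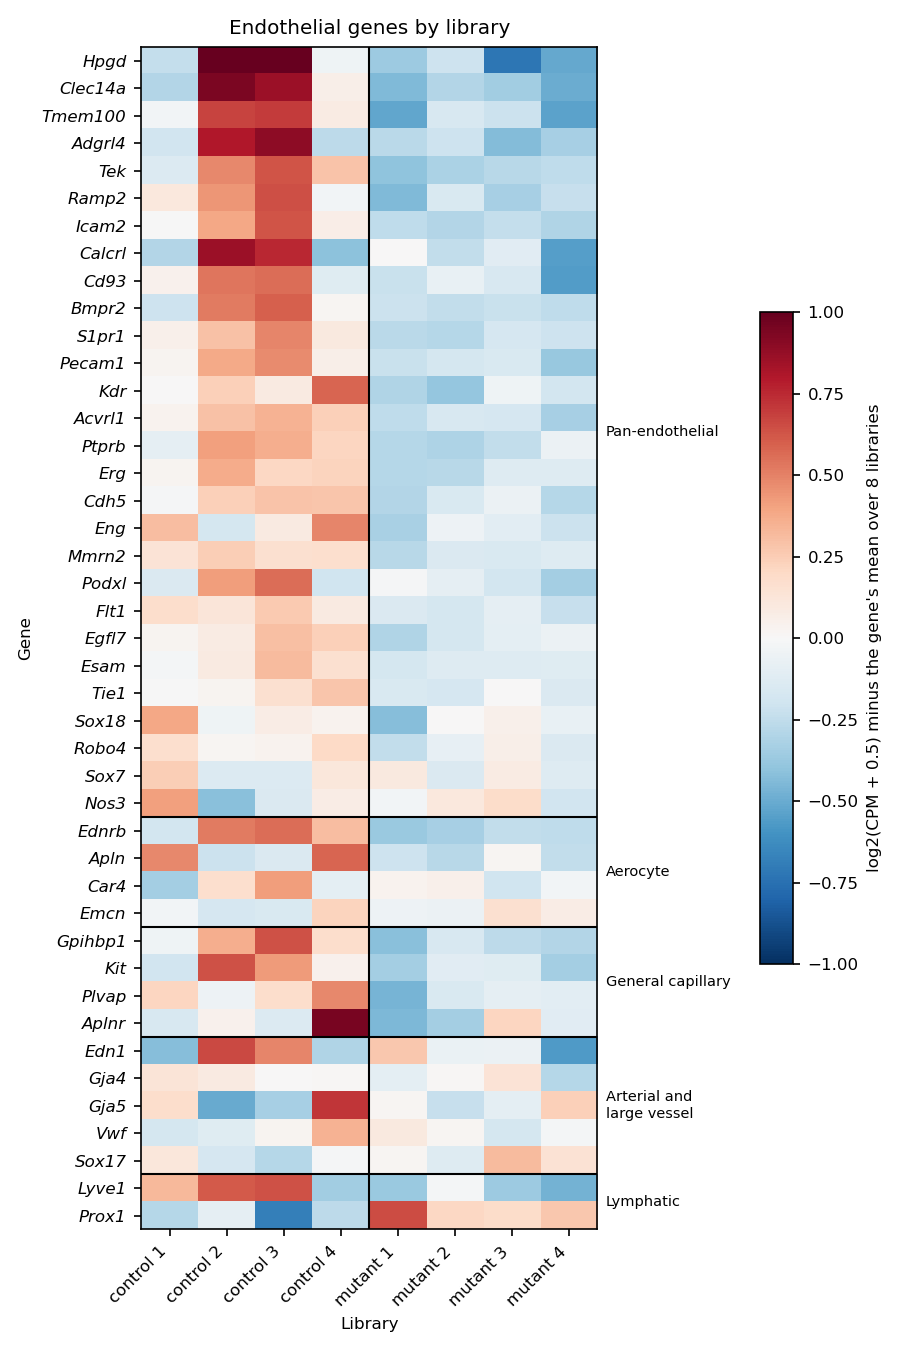
Level of each endothelial gene (rows, by vessel type) in each of the 8 libraries (columns), as log2 CPM minus the gene's mean over the libraries, with the colour scale ending at -1 and 1. Controls 2 and 3 hold the deepest red over much of the pan-endothelial block, and the 4 mutants are blue in most of its rows.

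The count of called genes depended on the libraries kept. It was 23, 4, 7 and 17 genes lower without control 1, 2, 3 or 4 in turn, and 2, 2, 6 and 3 without mutant 1, 2, 3 or 4, while the share of all genes called lower ran from 0.850% to 6.52%. Mmrn2 and Acvrl1 were called in all 8 of these fits, and all 15 called genes kept their sign in each. Without both controls 2 and 3, 7 genes were lower and 0 higher (1.26% and 3.56% of all genes), and 4 of the 15 (Mmrn2, Acvrl1, S1pr1 and Icam2) were still called. Without controls 1 and 4, 29 were lower and 2 higher, in a fit that called 19.2% of all genes lower and 21.5% higher. With all libraries DESeq2 called 26 lower and 1 higher, and 5.54% and 7.88% of all genes. By the values alone, 18 genes had all 4 mutants below all 4 controls, against 7.07% of all genes, and 1 had all mutants above all controls, against 9.75%. They include 14 of the 15 called genes and 5 that were not called (Kdr, Esam, Egfl7, Bmpr2 and Plvap).

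Among the pan-endothelial genes, 12 of 28 were lower in mutants and none was higher (23 lower and 0 higher at an unadjusted p under 0.05), 27 had a negative log2 fold change, and the median was -0.46. No share of all genes at an unadjusted p is given, so the unadjusted counts here and below have no background to be read against. Pecam1, which encodes the adhesion molecule CD31, was at 1004, 1285, 1367 and 1029 CPM in controls 1 to 4 and 847, 874, 886 and 758 CPM in mutants 1 to 4. The highest values were in controls 2 and 3, and no mutant reached the lowest control. Its log2 fold change (± SE, as for each one below) was -0.48 ± 0.12, edgeR adjusted p = 0.0369, and without controls 2 and 3 it was -0.27 (adjusted p = 0.122). Cdh5 encodes VE-cadherin, the cadherin of endothelial adherens junctions. It measured 859, 1021, 1057 and 1054 CPM in controls and 708, 782, 833 and 713 CPM in mutants, again with no overlap, and control 1 lay well under the other controls. The log2 fold change of Cdh5 was -0.39 ± 0.10, edgeR adjusted p = 0.0355, and -0.33 (adjusted p = 0.128) without controls 2 and 3. Icam2, an adhesion molecule for leukocytes, was nearly level in mutants, at 167, 163, 169 and 162 CPM, below controls at 199, 261, 309.6 and 209.5 CPM. Icam2 gave -0.57 ± 0.13 (edgeR adjusted p = 0.0297), and -0.30 with adjusted p = 0.0249 without controls 2 and 3. Leaving out 1 library at a time left Pecam1 called only without control 1 or 4, Cdh5 without control 1 or mutant 3, and Icam2 without control 1, 3 or 4, with edgeR adjusted p of up to 0.101, 0.115 and 0.0871 in the other fits. Esam, a tight junction molecule, had log2 fold change -0.28 ± 0.08 with groups that did not overlap and an edgeR adjusted p of 0.0673 (0.0206 without control 1). Podxl, an anti-adhesive sialomucin, gave -0.35 ± 0.17 (adjusted p = 0.244) and 0.02 without controls 2 and 3, and was called lower without controls 1 and 4, at -0.64 (adjusted p = 0.000335).

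Of the genes for VEGF and angiopoietin receptors and their phosphatase, Tek, Flt1 and Ptprb were lower, and Kdr and Tie1 were not called. Tek, the angiopoietin receptor TIE2, was at 304, 467, 516 and 407 CPM in controls and 252, 269, 276 and 279.8 CPM in mutants. Every control lay above every mutant, although control 1 was near them. Its log2 fold change was -0.65 ± 0.14, edgeR adjusted p = 0.0245, a 1.57-fold lower level, with -0.40 (adjusted p = 0.0788) without controls 2 and 3. Flt1, VEGF receptor 1, was measured at 359.8, 345, 382 and 339 CPM in controls and 287, 281, 299 and 271 CPM in mutants. This was an even pair of groups with a gap between them, and the difference was -0.32 ± 0.07 (edgeR adjusted p = 0.0223) and -0.29 (adjusted p = 0.0507) without controls 2 and 3. Kdr, VEGF receptor 2 and the main signalling receptor, had 364, 427, 385 and 542 CPM in controls and 294, 277, 351 and 319 CPM in mutants. The groups did not overlap, control 4 was the highest, and the difference of -0.47 ± 0.13 missed the threshold (edgeR adjusted p = 0.0601). Tie1, an orphan partner of TIE2, was at 384, 391, 430.0 and 465 CPM in controls and 345, 343, 386 and 348 CPM in mutants. Mutant 3 reached into the control range, and Tie1 gave -0.23 ± 0.08 with edgeR adjusted p = 0.125. Ptprb, the endothelial phosphatase that acts on TIE2 and VE-cadherin, was at 815, 1148, 1112 and 1003 CPM in controls and 712, 699, 729 and 833 CPM in mutants. It was the one called gene whose groups overlapped, at mutant 4 and control 1, with log2 fold change -0.46 ± 0.12 and edgeR adjusted p = 0.0442. Without controls 2 and 3 Ptprb was at -0.29 (adjusted p = 0.183). Without 1 library, Flt1 was called in 4 of 8 fits (without control 1, 2 or 4 or mutant 3), Tek in 3 (control 1, 3 or 4) and Ptprb in 1 (control 1). Their highest edgeR adjusted p in the other fits was 0.0784, 0.0843 and 0.132, and Kdr became called without control 1 (adjusted p = 0.0236).

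Of the genes that receive BMP signals, Acvrl1 was called whichever single library was left out. Acvrl1 encodes ALK1, the endothelial receptor for BMP9 and BMP10, at chr15:101128522-101145336 on the plus strand (GRCm38). It was at 689, 823, 858 and 795 CPM in controls and 563, 601, 599 and 533 CPM in mutants. The gap between the lowest control and the highest mutant was wider than the range of the mutants, and the log2 fold change was -0.46 ± 0.09, with a ratio of 0.726 (95% interval 0.633 to 0.832) and edgeR adjusted p = 0.0124. It was -0.37 (adjusted p = 0.0494) without controls 2 and 3. Tmem100, a membrane protein known as a target of ALK1, was at 443, 724, 736 and 479 CPM in controls and 316, 406, 390.4 and 312 CPM in mutants. The highest values were again in controls 2 and 3 and control 1 lay just above mutant 2. Its difference was -0.74 ± 0.18 (edgeR adjusted p = 0.0394), and -0.37 (adjusted p = 0.130) without those controls, and Tmem100 was called in 2 of 8 fits with a library left out (control 1 or 4), with adjusted p of up to 0.120 in the others. Bmpr2, the type II receptor, had groups that did not overlap and a log2 fold change of -0.51 ± 0.16 (edgeR adjusted p = 0.0942), and -0.14 without controls 2 and 3, and was called without control 1 (adjusted p = 0.0122). Eng, the co-receptor endoglin, was at 655, 469, 563 and 742 CPM in controls and 422, 511, 493 and 456 CPM in mutants, and here controls 2 and 3 were the lowest controls. The groups overlapped, at -0.37 ± 0.14 (edgeR adjusted p = 0.128), and Eng was called without controls 2 and 3, at -0.57 (adjusted p = 0.0122).

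**Figure D2:**
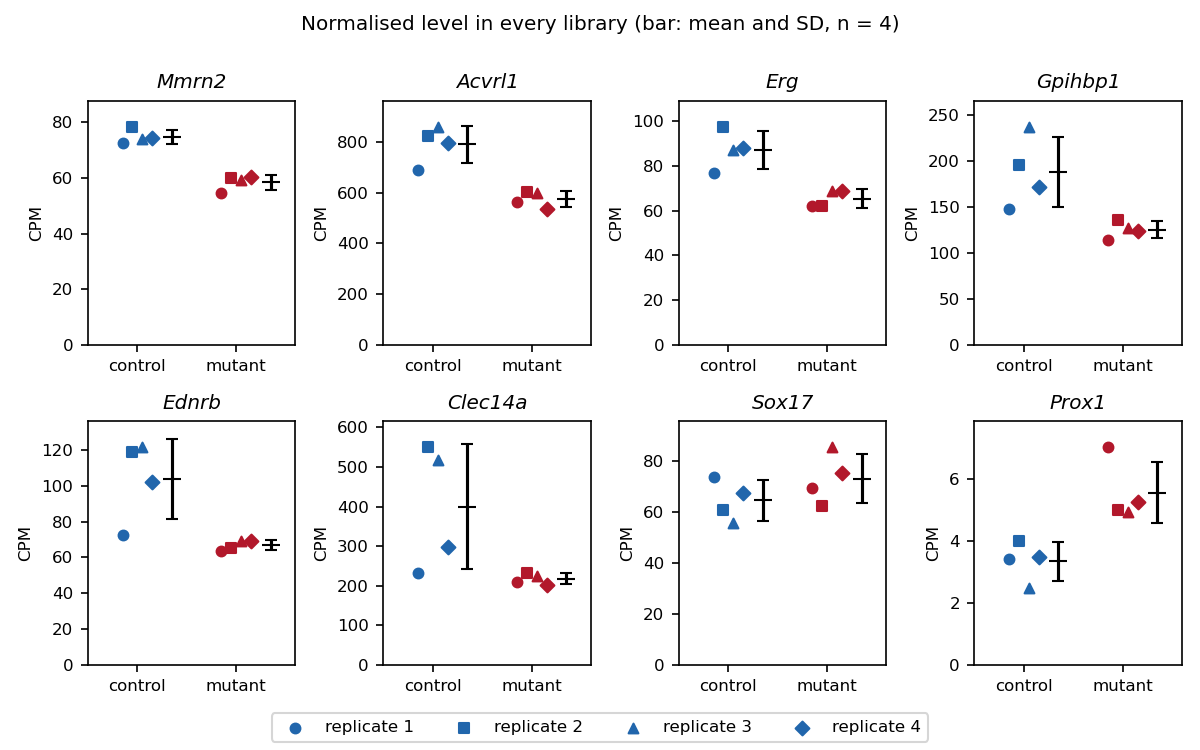
CPM (linear axis from 0) of 8 of the genes in each library, with 4 control and 4 mutant points told apart by marker and a bar for the mean and SD of each group (n = 4). Mmrn2, Acvrl1, Erg, Gpihbp1 and Ednrb have mutants below all controls, Clec14a has 2 control libraries far above the rest, Sox17 overlaps and Prox1 is higher in all 4 mutants.

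Of 3 further receptor genes, Ramp2 and S1pr1 were lower and Calcrl was not called. Ramp2, a partner protein of the adrenomedullin receptor, was at 369, 464, 535 and 335 CPM in controls and 251, 307, 272 and 291 CPM in mutants. The groups did not overlap and the log2 fold change was -0.60 ± 0.14 (edgeR adjusted p = 0.0336), and -0.33 (adjusted p = 0.0868) without controls 2 and 3. Of Ramp2's exon length, 33.4% is shared with Vps25, so reads there may have gone uncounted. Calcrl, the receptor that RAMP2 joins, was at 634, 1406, 1311 and 584 CPM in controls and 781, 655, 720.0 and 532 CPM in mutants. Controls 2 and 3 stood far above all other libraries, control 4 lay below 3 mutants, and the difference of -0.55 ± 0.29 was not called (edgeR adjusted p = 0.266). Without controls 2 and 3, Calcrl was at 0.14, and without controls 1 and 4 it was called lower, at -1.02 (adjusted p = 0.000418). S1pr1, the sphingosine-1-phosphate receptor that tightens junctions, was at 464, 548, 628 and 479 CPM in controls and 370.1, 366, 398 and 386 CPM in mutants, with no overlap. S1pr1 gave -0.48 ± 0.10 (edgeR adjusted p = 0.0214) and -0.31 (adjusted p = 0.0403) without controls 2 and 3, and was called without control 1, 3 or 4 or mutant 3. Ramp2 was called without control 1 or control 4. In the other fits that left out 1 library, edgeR adjusted p was up to 0.0762 for S1pr1 and 0.111 for Ramp2.

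Among the transcription factors, Erg fell and the SOXF genes did not pass the test. Erg, the ETS factor that maintains endothelial identity, was at 76.8, 97.5, 87.0 and 87.9 CPM in controls and 61.9, 62.0, 69.0 and 69.0 CPM in mutants. All mutants lay below all controls, with log2 fold change -0.41 ± 0.08 and edgeR adjusted p = 0.0169. It was called in 6 of 8 fits with a library left out, all but those without mutant 1 or 2 (adjusted p up to 0.0646), and was at -0.33 (adjusted p = 0.0578) without controls 2 and 3. Sox18 was at 104, 77.0, 83.4 and 81.3 CPM in controls and 59.0, 79.5, 82.4 and 75.3 CPM in mutants. Control 1 was the highest and mutant 1 the lowest, the rest overlapped, and the difference was -0.22 ± 0.12 (edgeR adjusted p = 0.294). Sox7 was at 97.0, 74.3, 74.3 and 88.4 CPM in controls and 87.2, 73.8, 86.5 and 74.4 CPM in mutants, fully interleaved, at -0.05 ± 0.11 (edgeR adjusted p = 0.780, 95% interval of the ratio 0.817 to 1.14).

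Of the remaining pan-endothelial genes, Mmrn2 had the lowest adjusted p of the 43. Mmrn2 encodes multimerin 2, an extracellular matrix protein of endothelium that binds CLEC14A and CD93, at chr14:34375465-34404287 on the plus strand (GRCm38). It was at 72.5, 78.3, 73.9 and 74.4 CPM in controls and 54.5, 59.8, 59.3 and 60.3 CPM in mutants. Both groups were tight and separate, with means of 74.8 ± 2.49 and 58.5 ± 2.66 CPM (SD, n = 4). The log2 fold change was -0.35 ± 0.06, a ratio of 0.782 (95% interval 0.711 to 0.861), edgeR adjusted p = 0.00831, and -0.33 (adjusted p = 0.0269) without controls 2 and 3. Its 2 partners were lower on average but not called. Clec14a was at 233, 549, 517 and 298 CPM in controls and 210.4, 233, 224 and 202 CPM in mutants, at -0.88 ± 0.25 (edgeR adjusted p = 0.0643) and -0.28 (adjusted p = 0.173) without controls 2 and 3, and was called without control 1 or 4. Cd93 gave -0.53 ± 0.17 (edgeR adjusted p = 0.0922) and -0.21 without controls 2 and 3, and was likewise called without control 1 or 4. The Clec14a controls 2 and 3 stood far above the other libraries and control 1 lay just inside the mutant range. Hpgd, the enzyme that breaks down prostaglandins and the gene with the highest level per kilobase of the 43, was at 425, 1010, 1049 and 484 CPM in controls and 389, 434, 303 and 349.7 CPM in mutants. Again controls 2 and 3 were far above all others, control 1 lay within the mutant range, and the difference of -1.01 ± 0.29 (edgeR adjusted p = 0.0693) became -0.30 (adjusted p = 0.270) without them. Hpgd was called without control 1 or 4. Adgrl4, an adhesion receptor, moved likewise, from -0.72 ± 0.26 to -0.08, and was called without control 1 or 4. The lowest edgeR adjusted p of these genes with 1 library left out was 0.00675 for Clec14a, 0.0337 for Cd93, 0.0130 for Hpgd and 0.0356 for Adgrl4. Robo4, a guidance receptor, gave -0.21 ± 0.08 (edgeR adjusted p = 0.144), and Egfl7, a secreted matrix factor whose exons overlap 2 miRNA genes, Agpat2 and Gm20532 over 11.2% of their length, -0.32 ± 0.09 (adjusted p = 0.0576), called without control 1 (adjusted p = 0.0248). Nos3, the endothelial nitric oxide synthase, was the one pan-endothelial gene with no negative difference, at 63.3, 35.4, 42.9 and 50.0 CPM in controls and 46.5, 51.2, 54.1 and 41.6 CPM in mutants. Its groups overlapped throughout, at 0.01 ± 0.16 (edgeR adjusted p = 0.978), and 32.3% of its exon length is shared with Atg9b and Gm15587. Clec14a, Hpgd, Calcrl, Eng and Nos3 were chosen for closer description after their values were seen.

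Of the 4 aerocyte genes, 1 was lower and none higher (1 and 0 at an unadjusted p under 0.05), and the median log2 fold change was -0.25. Ednrb, an endothelin receptor that marks aerocytes, lies at chr14:103814625-103844402 on the minus strand (GRCm38). It was at 72.7, 119, 122 and 102 CPM in controls and 63.6, 65.2, 69.4 and 69.1 CPM in mutants. The mutants lay close together, with control 1 just above them and the other controls well above. The log2 fold change was -0.63 ± 0.14, a ratio of 0.645 (95% interval 0.516 to 0.806), edgeR adjusted p = 0.0286, and -0.38 (adjusted p = 0.122) without controls 2 and 3. Ednrb was called without control 1 or 4, and in the other fits that left out 1 library edgeR adjusted p was up to 0.0924. Car4, a carbonic anhydrase bound to the aerocyte surface, was at 140.4, 199, 238 and 166 CPM in controls and 182, 184, 154 and 175 CPM in mutants. Controls 1 and 4 were below most mutants and controls 2 and 3 above them, and Car4 gave -0.10 ± 0.15 (edgeR adjusted p = 0.713) and, without controls 2 and 3, 0.18 (adjusted p = 0.343). Without controls 1 and 4 Car4 was called lower, at -0.34 (adjusted p = 0.0121). Apln, the ligand apelin, was at 79.2, 48.6, 51.0 and 85.0 CPM in controls and 48.9, 46.7, 57.4 and 47.5 CPM in mutants. Here controls 1 and 4 were the high ones, and the difference was -0.40 ± 0.18 (edgeR adjusted p = 0.212), and -0.71 (adjusted p = 0.00366) without controls 2 and 3. Emcn, the sialomucin endomucin, was at 68.5, 62.2, 62.9 and 81.9 CPM in controls and 67.5, 67.2, 78.0 and 73.6 CPM in mutants. The Emcn groups overlapped, at 0.06 ± 0.10 (edgeR adjusted p = 0.762, 95% interval of the ratio 0.891 to 1.21). Emcn is not restricted to aerocytes.

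All 4 general capillary genes had negative differences, 1 was called lower (3 lower and 0 higher at an unadjusted p under 0.05), and the median was -0.45. Gpihbp1 anchors lipoprotein lipase to the capillary wall and lies at chr15:75596628-75599481 on the plus strand (GRCm38). It was at 148, 195, 237 and 172 CPM in controls and 114, 136, 127 and 124 CPM in mutants. All mutants lay below all controls, with controls 2 and 3 the highest. The log2 fold change was -0.59 ± 0.13, a ratio of 0.665 (95% interval 0.541 to 0.819), edgeR adjusted p = 0.0287, and -0.35 (adjusted p = 0.0608) without controls 2 and 3. Gpihbp1 was called without control 1, 3 or 4, with edgeR adjusted p of up to 0.0951 without another library. Plvap, which forms the diaphragms of fenestrae and caveolae, was at 414, 343, 401 and 496 CPM in controls and 257, 319.5, 335 and 332 CPM in mutants. Its groups were apart by a few CPM between control 2 and mutant 3, and the difference of -0.41 ± 0.13 was not called (edgeR adjusted p = 0.0772), but was without controls 2 and 3, at -0.55 (adjusted p = 0.0371). Kit, the receptor for stem cell factor, was at 155, 276, 238 and 182 CPM in controls and 139.6, 164, 162 and 139 CPM in mutants. Control 1 lay within the mutant range, and Kit gave -0.49 ± 0.17 (edgeR adjusted p = 0.105) and -0.15 without controls 2 and 3, and was called without control 1 (adjusted p = 0.0175). Aplnr, the apelin receptor, was at 39.1, 45.1, 39.6 and 84.8 CPM in controls and 31.8, 34.5, 50.7 and 40.3 CPM in mutants. Control 4 was far above the rest, mutant 3 lay above the other 3 controls, and the difference was -0.41 ± 0.26 (edgeR adjusted p = 0.354).

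With all 8 libraries, none of the 5 arterial and large-vessel genes was called in either direction by edgeR (0 lower and 0 higher also at an unadjusted p under 0.05), and the median was -0.11. Sox17, the SOXF factor of arterial endothelium at chr1:4490931-4497354 on the minus strand (GRCm38), was at 73.8, 60.7, 55.8 and 67.5 CPM in controls and 69.3, 62.3, 85.3 and 75.4 CPM in mutants. Mutants 3 and 4 were the highest, the others overlapped, and Sox17 gave 0.18 ± 0.12 (edgeR adjusted p = 0.359). Gja4 and Gja5 encode connexins of arterial gap junctions. Gja4 was at 65.2, 63.6, 59.8 and 60.2 CPM in controls and 55.8, 60.2, 65.7 and 49.0 CPM in mutants, overlapping, with a difference of -0.11 ± 0.09 (edgeR adjusted p = 0.487). Gja5 was at 39.2, 24.3, 27.4 and 57.0 CPM in controls and 35.1, 29.4, 32.3 and 40.9 CPM in mutants, where controls 1 and 4 were high and controls 2 and 3 low. The difference for Gja5 was -0.11 ± 0.24 (edgeR adjusted p = 0.818). Without controls 1 and 4 Gja5 was called higher, at 0.41 (adjusted p = 0.0287). Edn1, the vasoconstrictor endothelin 1, was at 38.7, 82.7, 73.3 and 42.4 CPM in controls and 62.9, 49.9, 50.2 and 35.1 CPM in mutants. Edn1 showed the opposite control split, with -0.26 ± 0.26 (edgeR adjusted p = 0.574) in all libraries and 0.29 (adjusted p = 0.518) without controls 2 and 3, and was called lower without controls 1 and 4, at -0.66 (adjusted p = 0.0470). Vwf, the von Willebrand factor of large vessels, was at 599.5, 622, 689 and 859.6 CPM in controls and 721, 685, 597 and 667 CPM in mutants. Mutants and controls overlapped, at -0.05 ± 0.12 (edgeR adjusted p = 0.815, 95% interval of the ratio 0.799 to 1.16). Platelets also carry Vwf, and 3 of their 6 tested markers were lower in mutants (Ppbp, Gp9 and Tubb1), with Gp1bb at 0 in every library and summed levels of 43.2 to 56.1 CPM in controls against 32.6 to 42.7 CPM in mutants. The part of platelets in the Vwf values was not tested.

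Of the 2 lymphatic genes 1 was higher and 0 were lower (1 higher and 1 lower at an unadjusted p under 0.05). Prox1, the transcription factor that sets lymphatic identity, lies at chr1:190118035-190170714 on the minus strand (GRCm38) and was rare, at 42 to 122 counts per library, against at least 353 for any other of the 43 genes. It was at 3.42, 3.99, 2.47 and 3.48 CPM in controls and 7.01, 5.01, 4.92 and 5.25 CPM in mutants. All mutants lay above all controls, and Prox1 rose by a log2 fold change of 0.73 ± 0.19, a ratio of 1.66 (95% interval 1.24 to 2.23), edgeR adjusted p = 0.0461. It kept the call without control 1 alone of the 8 libraries (adjusted p up to 0.138 without another), and was at 0.69 (adjusted p = 0.102) without controls 2 and 3. Lyve1, the hyaluronan receptor of lymphatic vessels, was at 477, 585, 594 and 301 CPM in controls and 295, 376, 297 and 275 CPM in mutants. Control 4 was as low as the mutants, and the difference was -0.66 ± 0.20 (edgeR adjusted p = 0.0826) and -0.32 (adjusted p = 0.440) without controls 2 and 3. Without control 4, Lyve1 was called (adjusted p = 0.00550). Some macrophages also carry Lyve1, and of 12 myeloid markers 0 were lower and 3 higher in mutants (Mrc1, Chil3 and Cd68), with summed levels of 5922 to 7936 CPM in controls and 6166 to 8447 CPM in mutants. The part of macrophages was not tested. Cells other than lymphatic endothelium, such as heart muscle, also make Prox1. The other lymphatic genes (Flt4, Pdpn, Ccl21a, Reln, Mmrn1, Nrp2 and Nts) had 0 of 7 called by edgeR (0 lower and 2 higher at an unadjusted p under 0.05).

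**Figure D3:**
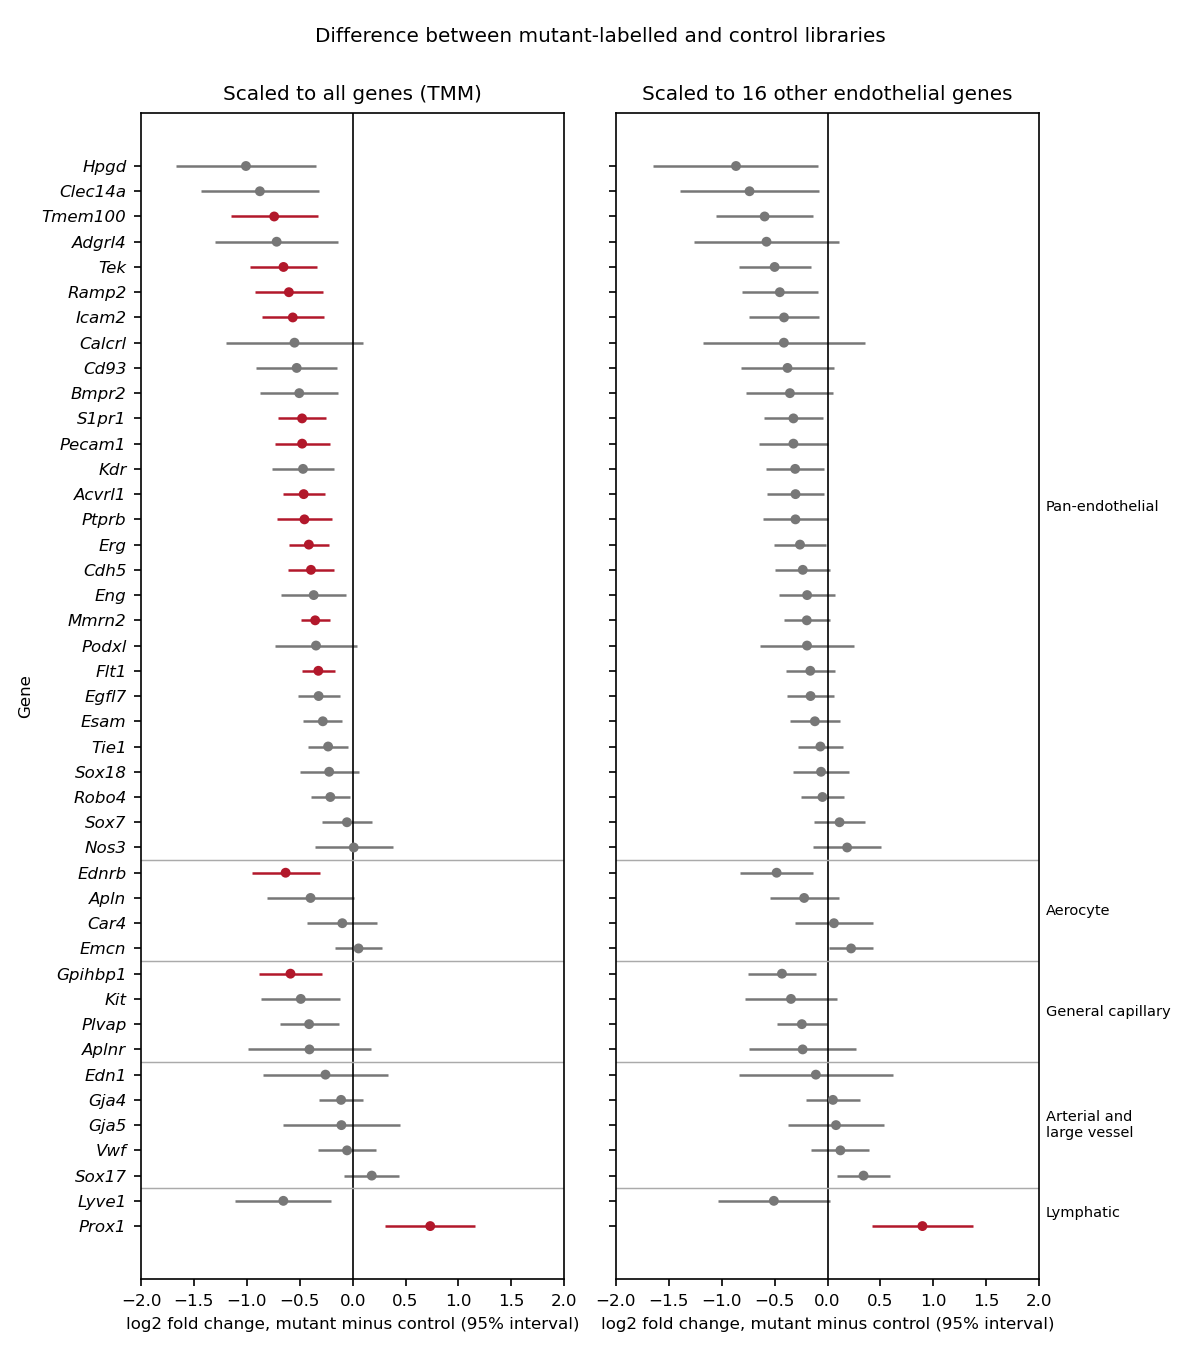
log2 fold change (mutant minus control) of each gene with its 95% interval, in the fit on all counts (left) and relative to 16 other endothelial genes (right), with coloured intervals for genes at adjusted p under 0.05. On the left 39 of 43 points lie below 0, and on the right 34 do, with 13 intervals wholly below 0, 3 wholly above it and Prox1 alone called. The counts of intervals have no share of all genes to be read against.

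To read the vessel types apart from the amount of endothelial RNA, the test was repeated with library sizes set by 16 other endothelial genes (Cldn5, Ecscr, Myct1 and 13 more). Those genes had a median of -0.21 in the first test, with 11 of 16 negative. Of them 1 was called lower (She, -0.50, edgeR adjusted p = 0.01625) and 1 higher (Exoc3l2, 0.68, adjusted p = 0.0337). The change of scale moved the median of all genes to 0.16, so these differences are relative to that shift. On this scale 0 of the 43 genes were lower and 1 was higher by edgeR, against backgrounds of 0.931% and 12.5% of all genes. At an unadjusted p under 0.05, 13 were lower and 3 higher, with no share of all genes to read these counts against. The limma-voom fit called 0 lower and 1 higher, against 0.896% and 13.3% of all genes. DESeq2 called 5 lower (Tek, Clec14a, Tmem100, Ednrb and Gpihbp1) and 2 higher (Prox1 and Sox17), against 1.39% and 15.9% of all genes. Negative values were found for 34 genes, with a median of -0.24. Prox1 was the gene called, at 0.90 (edgeR adjusted p = 0.0184). Sox17 was at 0.34 (edgeR adjusted p = 0.0673), Gpihbp1 at -0.43 (adjusted p = 0.0751), Ednrb at -0.48 (adjusted p = 0.0654) and Pecam1 at -0.32 (adjusted p = 0.174). Outside the 43, 1 of 5 general capillary genes (Cd300lg, -1.11, edgeR adjusted p = 0.00883) and 1 of 10 arterial genes (Dll4, -0.47, adjusted p = 0.0220) were lower. Of 7 lymphatic genes 1 was higher (Ccl21a, 0.50, edgeR adjusted p = 0.0323), as was 1 of 7 venous genes (Lrg1, 2.02, adjusted p = 2.86e-06). Of 6 aerocyte genes 0 were called. Leaving out 1 library gave 0 to 12 lower (12 without control 1, 6 without control 4, 0 otherwise) and 0 higher without control 3 or mutant 1, where Prox1 lost its call. Those fits called 0.506% to 1.79% of all genes lower and 6.08% to 16.1% higher. Leaving out controls 1 and 4 gave 26 lower and 5 higher, in a fit that called 9.77% of all genes lower and 23.8% higher.

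Mean levels of the vessel types in each library, as mean log2 CPM minus that of the 16 genes, were compared with no test. The 16 genes themselves had means of 6.46, 6.31, 6.38 and 6.54 in controls 1 to 4 and 6.25, 6.27, 6.41 and 6.32 in mutants 1 to 4. Among controls these means were lowest in controls 2 and 3, which raises the differences of those libraries. Pan-endothelial genes were at 1.86, 2.32, 2.32 and 1.87 in controls 1 to 4 and 1.80, 1.85, 1.73 and 1.72 in mutants 1 to 4. Controls 2 and 3 stood above the others, and controls 1 and 4 lay just above the highest mutant. General capillary genes were at 0.66, 1.11, 1.06 and 1.04 in controls and 0.50, 0.71, 0.69 and 0.63 in mutants, with control 1 inside the mutant range and the other 3 controls above it. Aerocyte genes were at -0.02, 0.23, 0.25 and 0.17 in controls and 0.06, 0.03, -0.02 and 0.02 in mutants, where control 1 was as low as the lowest mutants. Arterial genes were at -0.04, 0.14, 0.05 and 0.07 in controls and 0.27, 0.10, 0.07 and 0.04 in mutants. Lymphatic genes were at -1.02, -0.63, -0.99 and -1.42 in controls and -0.69, -0.76, -1.08 and -1.01 in mutants, and in both sets the groups overlapped.

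**Figure D4:**
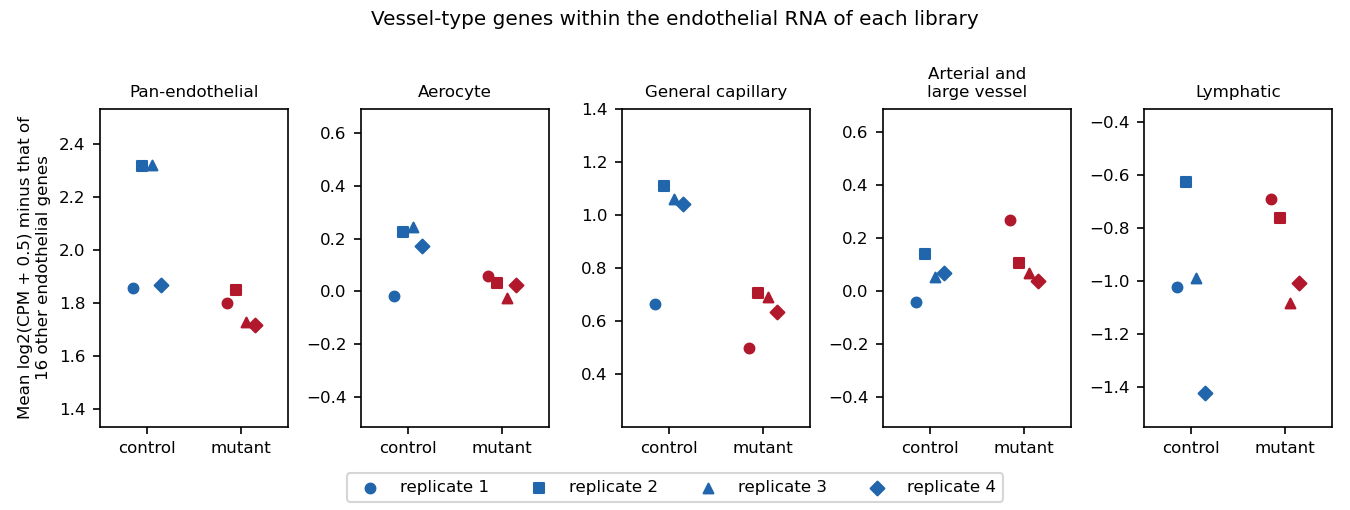
Mean log2(CPM + 0.5) of each vessel type's genes minus that of 16 other endothelial genes, 1 point per library (4 control, 4 mutant), with axes of equal span but different position. The pan-endothelial, general capillary and aerocyte panels have controls 2 and 3 on top, and the arterial and lymphatic panels overlap. Among controls, the mean of the 16 genes subtracted was itself lowest in controls 2 and 3.

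The spread of these genes lay mainly among controls. The SD of log2 CPM was larger among controls than among mutants for 38 of 43 genes (88.4%, against 74.1% of all genes). The 2 highest controls were controls 2 and 3 for 21 genes (48.8%, against 31.8% of all genes) and controls 1 and 4 for 9 (20.9%, against 29.5%). Genes of the first kind included Calcrl, Clec14a, Hpgd, Adgrl4 and Tmem100, and of the second Apln, Gja5 and Nos3. Whether the split of the controls is technical was not tested.

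Among general capillary genes outside the 43, 1 of 5 was lower, Cd300lg, an adhesion receptor, at 28.0 ± 8.76 CPM in controls and 11.7 ± 1.02 CPM in mutants (SD, n = 4, edgeR adjusted p = 0.00636). Among other arterial genes 2 of 10 were lower and none higher: Dll4, a Notch ligand, at 94.9 ± 10.4 CPM in controls and 61.6 ± 7.85 CPM in mutants (SD, n = 4, edgeR adjusted p = 0.00760), and Hey1, a Notch target, at 84.7 ± 13.7 CPM in controls and 57.1 ± 6.53 CPM in mutants (SD, n = 4, edgeR adjusted p = 0.0242). At an unadjusted p under 0.05, 6 of these 10 were lower and 0 higher. A negative difference was found for 9 of them, with a median of -0.36, unlike the arterial genes among the 43. Of 6 other aerocyte genes 0 were called by edgeR (4 lower and 0 higher at an unadjusted p under 0.05), and of 10 VEGF and angiopoietin genes 0 were called (2 lower and 2 higher unadjusted). Of 15 tested BMP pathway genes 1 was lower, Smad6, the inhibitory SMAD and a BMP target, at 195 ± 40.5 CPM in controls and 115 ± 23.3 CPM in mutants (SD, n = 4, edgeR adjusted p = 0.0336). Of 14 further endothelial transcription factors 2 were lower, Epas1, a hypoxia-inducible factor, at 2685 ± 247 CPM in controls and 2068 ± 135 CPM in mutants (SD, n = 4, edgeR adjusted p = 0.0414), and Tal1, a factor of blood and endothelium, at 28.3 ± 1.94 CPM in controls and 22.7 ± 1.59 CPM in mutants (SD, n = 4, edgeR adjusted p = 0.0472). Of 7 venous genes 1 was higher, Lrg1, at 72.1 ± 9.82 CPM in controls and 264 ± 26.2 CPM in mutants (SD, n = 4, edgeR adjusted p = 1.91e-05). Lrg1 is a secreted glycoprotein that epithelium and neutrophils also make.

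Some markers of other cell types changed as well. Of 14 pericyte and smooth muscle markers 3 were lower (Des, Abcc9 and Rgs5) and none higher, with summed levels of 1386 to 1765 CPM in controls and 1276 to 1466 CPM in mutants. Of 14 epithelial markers 2 were lower (Scgb1a1 and Cyp2f2) and 5 higher (Foxj1, Cldn7, Krt18, Krt8 and Epcam), and of 10 fibroblast markers 0 were lower and 2 higher (Mfap4 and Col3a1). Mast cells and basophils carry Kit, and 1 of their 5 tested markers was called, Hdc, which was higher in mutants. The other 4 tested markers had negative differences, and the median over the 5 was -0.24. Their Fcer1a, Ms4a2 and Mcpt8 had at most 7 counts in any library. The list summed to 63.1 to 105 CPM in controls and 148 to 173 CPM in mutants, and Hdc was the only tested marker that was higher on average. Lymphoid, erythroid and mesothelial lists had 0 of 10, 0 of 5 and 0 of 5 tested markers called by edgeR, and 0 also at an unadjusted p under 0.05. The part of these cells in the levels of the 43 genes was not tested.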

How the data were processed

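The deposited table gives raw counts per gene, made by the authors with featureCounts 1.6.2 on the GENCODE M25 annotation of GRCm38, unstranded, with reads that meet several genes left uncounted, per the file headers. Its other numeric column is the exon length the authors deposited, used for levels per kilobase. The labels name both a stranded kit and TruSeq V2. Of 55401 IDs, 99.5% matched a symbol in GENCODE tables, and no per-sample column went unused. Groups came from the genotype labels. Counts were filtered (filterByExpr, minimum count 10, minimum total 15), scaled by TMM and tested with edgeR 4.0.16 (quasi-likelihood, robust) in R 4.3.3, with p-values adjusted over all 16964 genes and a threshold of 0.05. CPM are TMM-scaled. A second fit took library sizes from the median of ratios over 16 endothelial genes. The alternatives used DESeq2 1.42.0, limma 3.58.1, other scalings and filters, a GC correction, a replicate block and omitted libraries. The test was checked on simulated data, which held no split among the controls like that of the real libraries. All capillary, arterial and lymphatic genes and the called or best-known pan-endothelial genes are given in full, and from other lists up to 4 called genes. Members and lists were chosen with earlier results of these data known.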

Additional observations from a re-analysis of the deposited data

Results flagged for a closer look

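In 3 of the 86 groups of 4 libraries, 1 library lay far from the other 3 for its gene, by Dixon's test at the 95% level, and chance flags about 1 in 20 groups. Control 1 was the lowest control for Cdh5, at 859 CPM against 1021 to 1057 CPM in the others. Mutant 3 was the highest mutant for Tie1, at 386 CPM against 342 to 348 CPM. Mutant 1 was the lowest mutant for Mmrn2, at 54.5 CPM against 59.3 to 60.3 CPM.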

How the results depend on the processing

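The median of the 43 genes was negative under each alternative run. Other scalings (DESeq2 size factors, upper quartile, library size only), both other filters and limma-voom called 14 or 15 genes lower and 1 higher. Those fits called 1.42% to 2.53% of all genes lower and 3.23% to 6.5% higher. Removal of a GC trend gave 20 lower and 1 higher (2.91% and 5.23% of all genes), and DESeq2's test 26 lower (5.54% of all genes). The replicate numbers did not pair the libraries (correlations of same-numbered deviations 0.01, 0.13, -0.12 and 0.13, with 3 of 8 libraries closest to their own number). With a replicate block, 16 were lower and 0 higher (Prox1, edgeR adjusted p = 0.0587), against 2.19% and 5.1% of all genes. With 1 library left out, 2 to 23 were lower and 0 to 1 higher, against 0.85% to 6.52% and 3% to 8.86% of all genes. Without controls 2 and 3, a choice made after seeing the data like the next 2, 7 were lower and 0 higher (1.26% and 3.56% of all genes). The sign changed for Calcrl (0.14), Nos3 (-0.23), Podxl (0.021), Car4 (0.18), Emcn (-0.068) and Edn1 (0.29). Without controls 1 and 4, 29 were lower and 2 higher (19.2% and 21.5% of all genes). The sign then changed for Sox7 (0.11), Apln (0.0055), Gja5 (0.41, called higher) and Vwf (0.023). Without control 1 and mutant 4, whose description numbers stand apart, 18 were lower and 0 higher (3.69% and 6.05% of all genes), with Sox7 at 0.063. Library size alone put Sox7 at 0.0013 and Vwf at 0.0059, and the GC correction put Nos3 at -0.11. Leaving out 1 library moved Sox7 from -0.11 to 0.028, Nos3 from -0.11 to 0.18, Car4 from -0.21 to 0.043, Gja5 from -0.26 to 0.18 and Vwf from -0.11 to 0.067. None of the genes named here was called with all 8 libraries, apart from Prox1.

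Relative to the 16 endothelial genes, 0 lower and 1 higher became 3 higher with summed counts as the reference (Emcn, Sox17 and Prox1). That fit called 23% of all genes higher. The count was 5 lower without the filter (0.775% of all genes), and 5 lower and 2 higher with DESeq2's test (1.39% and 15.9%). It was 1 lower with a replicate block (Tmem100, 1.1% of all genes) and 1 lower with the GC correction (Plvap, 0.925%). Uncalled genes that changed sign were Tie1 (0.014), Sox18 (0.014) and Robo4 (0.030) with summed counts and Gja4 (-0.11) with the GC correction. With 1 library left out, 0 to 12 were lower and 0 to 2 higher, against 0.506% to 1.79% and 6.08% to 16.1% of all genes. Signs changed for Sox18 (-0.12 to 0.021), Car4 (-0.071 to 0.18), Gja4 (-0.0004 to 0.14), Gja5 (-0.0575 to 0.31), Edn1 (-0.29 to 0.15) and Aplnr (-0.36 to 0.041). Without controls 2 and 3, 2 were lower (Eng, Apln) and 2 higher (Car4, Prox1), against 0.629% and 9.96% of all genes. Uncalled sign changes came for Calcrl (0.35), Sox7 (-0.0036), Nos3 (-0.036), Bmpr2 (0.067), Podxl (0.23), Adgrl4 (0.13), Kit (0.053), Gja5 (-0.26) and Edn1 (0.50). Without controls 1 and 4, 26 were lower and 5 higher (Nos3, Emcn, Sox17, Gja5 and Prox1), against 9.77% and 23.8% of all genes. Uncalled sign changes came for Car4 (-0.23), Apln (0.10) and Gja4 (-0.0091). Without control 1 and mutant 4, 4 were lower and 2 higher (1.25% and 12.8% of all genes), with uncalled sign changes for Sox18 (0.0265) and Car4 (-0.0576). The cause of these changes was not tested. The number of genes whose groups did not overlap was 17 to 24 lower and 1 higher in each alternative. The shares of all genes were 4.76% to 13% lower and 9.29% to 15% higher. Counts limit Prox1 most, at 42 to 122 per library.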
